A study of Mus musculus with 36 samples.

Results

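The growth hormone, STAT5 and IGF1 axis was followed in mouse liver through 10 genes, taken from the table of 38283 genes by their symbols: the receptor gene Ghr, the transcription factor genes Stat5a and Stat5b, the feedback inhibitor genes Socs2 and Cish, the hormone gene Igf1, and the sex-biased genes Bcl6, Hsd3b5, Elovl3 and Cux2. Livers came from 36 C57Bl/6J mice aged 16 weeks, all kept on chow, with 6 mice in each of 6 groups. Wild-type mice and mice heterozygous for the Pik3r1 Y657* allele (WT/Y657*) were killed in 3 states: fed ad libitum, fasted for 16 h, or refed chow for 6 h after a 16 h fast. The allele carries a premature stop codon near the end of the PI 3-kinase regulatory subunits encoded by Pik3r1. It was present in all tissues and not in the liver alone, and the wild-type mice carried no engineered allele. The comparisons ask whether the liver transcripts of this axis differ between genotypes in each state, and whether they move differently when food is removed and returned.

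Growth hormone binds its receptor on hepatocytes, the kinase JAK2 bound to the receptor phosphorylates STAT5A and STAT5B, and the STAT5 dimers enter the nucleus and bind DNA. In liver they are known to raise transcription of Igf1, whose product circulates as the main growth hormone dependent growth factor, and of Socs2 and Cish, whose products dampen the same receptor. The pituitary of male mice releases growth hormone in pulses separated by intervals with almost none, and that of female mice more continuously. Liver STAT5 follows this pattern, which is why many liver genes, including Hsd3b5 and Elovl3 in males and Cux2 in females, are expressed at different levels in the sexes. BCL6 is a repressor found at higher levels in male liver that binds many of the same sites as STAT5.

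The 9-letter palindrome TTCNNNGAA is the core of the sequence bound by STAT5, and BCL6 recognises a related one. It was searched in promoters of 300 bases, from 250 before to 50 after each annotated start, taken from RefSeq on GRCm38.p6. The palindrome reads the same on both strands, so 1 search covers them. It occurred in 8.30% of 32851 promoters, more than once in 0.457% and 3 or more times in 0.0335%. Of the 10 genes, 8 had 13 promoters in this set, and 3 of those promoters held it, 1 of Cish and both of Bcl6. They are shown because the levels of Cish and Bcl6 were compared between mice, as described further on. Capitals mark the palindrome. In Cish (chr9:107296409-107296708, plus strand) a copy begins at the start site and another 11 bases after it. In Bcl6 the first promoter (chr16:23988803-23989102, minus strand) has a copy at -118 bases from the start, and the alternative promoter (chr16:23981234-23981533, minus strand) has copies at -168, -122 and -88.
Cish promoter: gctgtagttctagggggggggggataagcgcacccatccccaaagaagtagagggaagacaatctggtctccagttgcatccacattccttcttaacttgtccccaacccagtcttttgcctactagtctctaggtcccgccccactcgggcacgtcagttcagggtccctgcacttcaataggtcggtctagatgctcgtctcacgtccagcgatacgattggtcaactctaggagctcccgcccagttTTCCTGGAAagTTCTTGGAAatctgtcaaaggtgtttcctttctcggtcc
Bcl6 promoter: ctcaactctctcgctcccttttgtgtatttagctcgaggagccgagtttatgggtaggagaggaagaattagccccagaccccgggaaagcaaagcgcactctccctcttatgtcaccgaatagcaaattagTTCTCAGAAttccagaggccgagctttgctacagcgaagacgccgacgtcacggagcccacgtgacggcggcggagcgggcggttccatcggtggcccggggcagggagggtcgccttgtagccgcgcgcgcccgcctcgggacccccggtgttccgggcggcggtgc
Bcl6 alternative promoter: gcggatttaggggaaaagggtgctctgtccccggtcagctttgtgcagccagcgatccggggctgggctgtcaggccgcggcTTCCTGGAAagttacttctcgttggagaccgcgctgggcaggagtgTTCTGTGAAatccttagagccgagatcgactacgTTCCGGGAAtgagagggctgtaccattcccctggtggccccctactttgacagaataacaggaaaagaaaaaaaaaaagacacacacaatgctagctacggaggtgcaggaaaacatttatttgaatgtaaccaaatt
No palindrome lay in these windows for Ghr, Stat5a, Stat5b, Igf1, Hsd3b5 or Cux2. The RefSeq window of Hsd3b5 (chr3:98645485-98645784, minus strand) lies upstream of the GENCODE gene and does not cover its annotated start. Those of Igf1, Cish, Stat5a and Cux2 lie inside their GENCODE genes and do not cover the outermost annotated start either. Motif positions are counted from the RefSeq starts.

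RNA was sequenced in 1 pool on 1 lane, and library totals ranged from 8839488 to 19542775 counts. The 10 symbols matched 11 entries of the table. The extra entry, also named Cux2, held 5 counts in all 36 mice together and was not tested, and all 10 annotated genes passed the filter on low counts with 13945 genes in all. Transcripts of Pik3r1 did not separate the genotypes: its levels were 119 to 158 CPM (counts scaled to a common library size) in fed wild-type and 115 to 182 in fed WT/Y657* mice, with adjusted p = 0.886 fed, 0.807 fasted and 0.423 refed. A gene-level count does not show the altered codon. The Y-linked gene Ddx3y had at least 969 counts and Xist at most 7 in each mouse, in a study that gives its sequenced fed and fasted mice as males. Hepatocyte markers summed to 46100 to 88200 CPM in all groups.

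Mice are named by the genotype code and number of their labels (WT_816, MT_866, where MT is WT/Y657*). Their numbers fell into series, and these bear on several results. Each fasted and each refed group held 3 mice of a lower and 3 of a higher series, and all fed mice came from a middle series. The fed mice fell into 3 blocks of neighbouring numbers: 4 wild-type mice alone, 2 wild-type with 3 WT/Y657* mice, and 3 WT/Y657* mice alone. Genotype in the fed state is therefore largely confounded with block, and with blocks as a covariate no gene of 13945 passed the fed genotype test by edgeR's quasi-likelihood method (651 at an unadjusted p under 0.05). Tissue was taken before the overnight fast, after it, or after refeeding. A difference of fed mice from fasted or refed mice therefore cannot be told apart from one between mouse number series. Feeding state likewise cannot be told apart from time of day. Of 12 clock genes tested, 7 differed between refed and fasted WT/Y657* mice, where 31.3% of all genes did, and 5 in wild-type mice, where 30.2% did. Their part in the results was not tested.

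A fed WT/Y657* mouse, MT_866, stood apart in female-biased genes. It had 162 CPM of Cyp2a4, 24 of Cyp2b9 and 49.3 of Cyp2c40. The other 5 mice of its group had between 6.31 and 9.39 CPM of Cyp2c40. It also had the lowest Hsd3b5 of its group, at 72.8 CPM, and the highest Socs2, at 31.9. Its count was 1603 for Ddx3y and 1 for Xist. Several results that it touches are given with and without it, and the others include it.

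The 10 genes spanned a wide range of abundance. Per kilobase of gene model in fed wild-type liver, mean CPM was 134 for Hsd3b5, 90.1 for Elovl3, 76.6 for Ghr and 48.4 for Igf1. It was 11.7 for Stat5b, 4.98 for Bcl6, 1.77 for Stat5a, 1.5 for Cish, 0.62 for Socs2 and 0.0665 for Cux2. Neighbours in this order whose ranges of mean ± 1 SD overlapped were Hsd3b5 and Elovl3, Elovl3 and Ghr, Stat5a and Cish, and Cish and Socs2. The spread between mice of a group also differed. The coefficient of variation over 6 mice was 4.76% to 12.8% for Stat5b and 6.94% to 13.1% for Igf1, against 39.2% to 91.0% for Cish and 36.8% to 68.3% for Bcl6. Cish and Bcl6 therefore had wide intervals in each comparison.

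**Figure D1:**
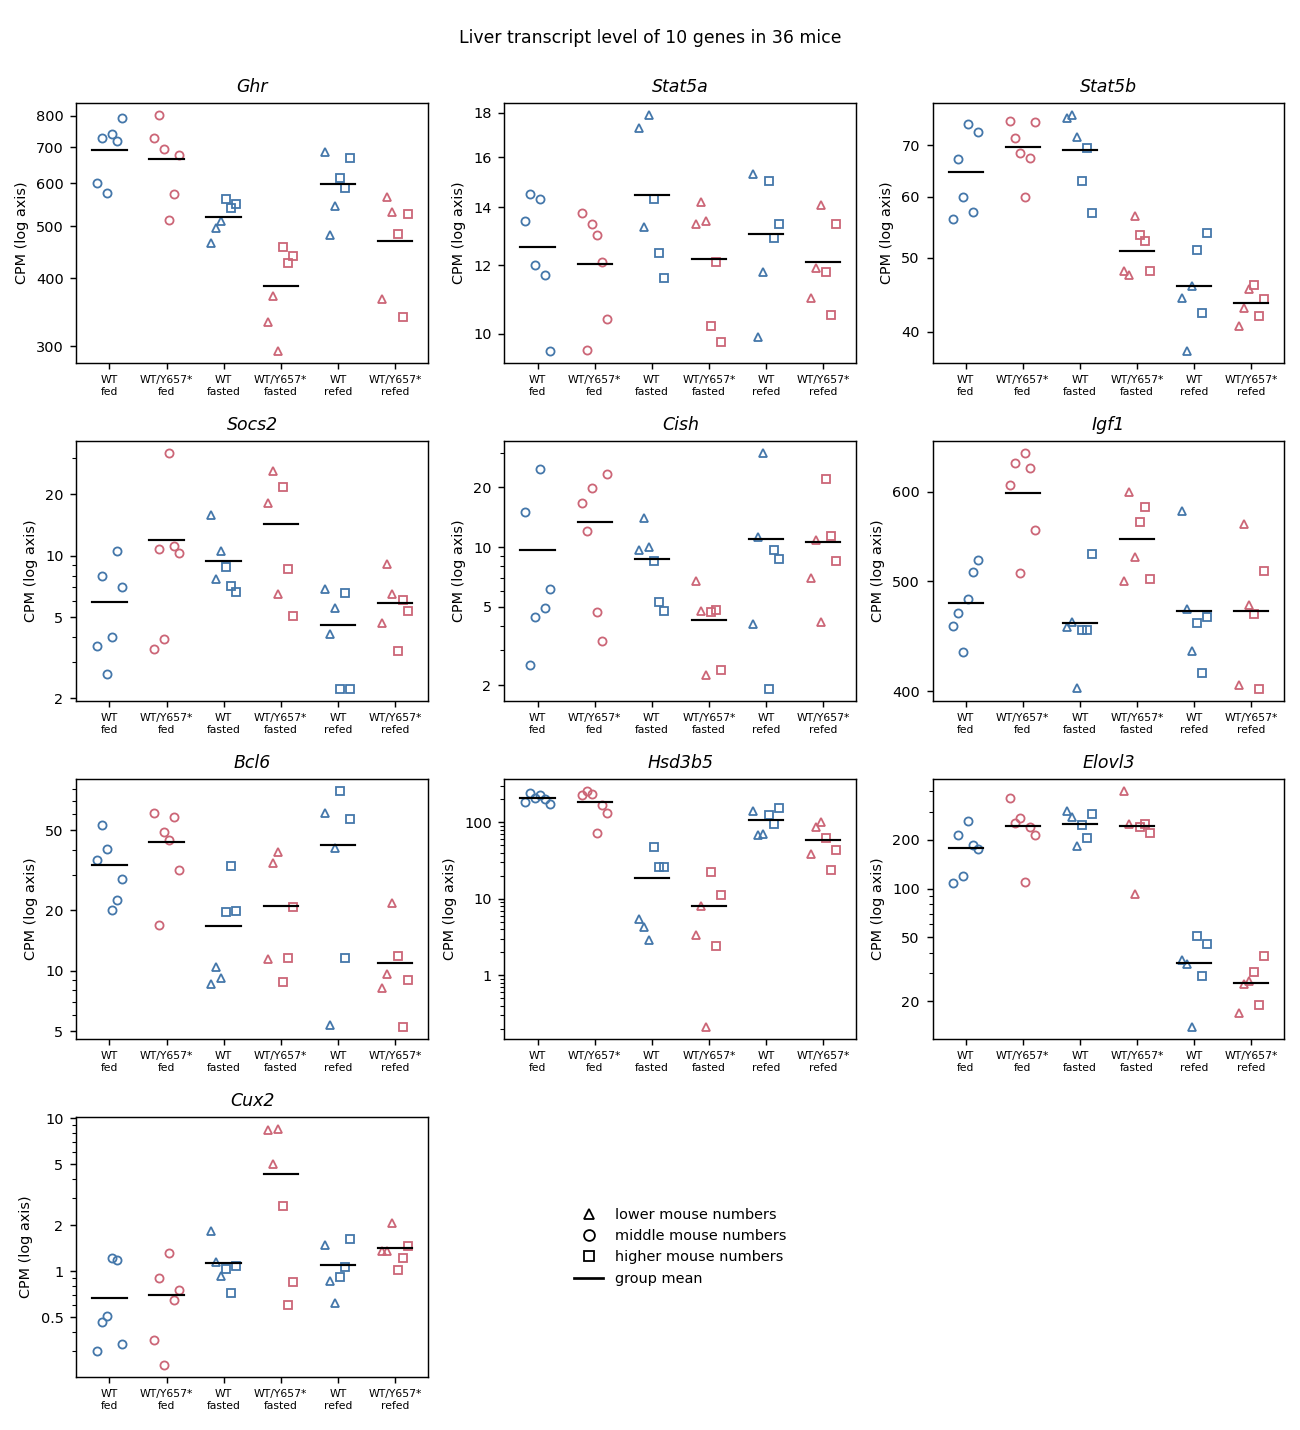
Levels of the 10 genes in every mouse, in CPM on a log axis, 1 panel per gene and 6 groups of 6 mice per panel (blue wild-type, red WT/Y657*, with triangles, circles and squares for lower, middle and higher mouse numbers, and a line at the group mean). Stat5b and Igf1 points lie close together within groups, Cish and Bcl6 points spread widely, and Hsd3b5 in fasted mice reaches down to 0.211 CPM.

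Genotype was compared first. In fed liver 1 of the 10 genes, Igf1, was higher in WT/Y657* mice, where 2.37% of all genes passed the test. Lymphocyte markers summed to 1.36 to 2.29 CPM in fed wild-type and 2.13 to 9.41 in fed WT/Y657* mice, 2 of 4 tested were higher, and their part in the result was not tested. In fasted liver 4 of 10 passed, against 13.1% of all genes: Igf1 and Cux2 were higher in WT/Y657* mice and Ghr and Stat5b were lower. In refed liver none passed by edgeR's quasi-likelihood test, against 0.0287% of all genes, that is 4 genes. At an unadjusted p under 0.05, 2 of the 10 passed in refed liver, Ghr and Bcl6, and DESeq2 called 1, Bcl6. The 3 comparisons use separate mice.

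Ghr (chr15:3317760-3583492, minus strand, GENCODE M21 on GRCm38, as are the other gene positions) encodes the growth hormone receptor. In fasted wild-type mice its level was 466 CPM at the lowest, 526 at the median and 561 at the highest, and in fasted WT/Y657* mice it was 294, 400 and 458. Each fasted WT/Y657* mouse lay below each fasted wild-type mouse. The log2 difference was -0.43 ± 0.12 (SE, n = 6 and 6, adjusted p = 0.0166), a ratio of 0.744. It was -0.39 (adjusted p = 0.0517) without MT_806 and -0.36 (adjusted p = 0.0538) without MT_827. In refed mice the wild-type levels were 482, 601 and 687 CPM and the 6 WT/Y657* mice had 339, 366, 484, 527, 530 and 567 CPM. This gave a difference of -0.35 ± 0.12 that missed the threshold (adjusted p = 0.336). In fed mice the groups were interleaved, at 576, 724 and 793 against 514, 686 and 803 CPM, with a difference of -0.06 ± 0.12 and a 95% interval from -0.30 to 0.18.

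Of the other receptors and the kinase of the list (Jak2, Prlr, Lepr, Insr and Igf1r), none passed the genotype test in any state. With Ghr included, the number at an unadjusted p under 0.05 was 1 of 6 fed, 2 fasted and 3 refed. Jak2, the kinase that the receptor carries, had medians of 31.8 CPM in fasted wild-type and 27.2 in fasted WT/Y657* mice.

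Stat5b (chr11:100780731-100850724, minus strand), the more abundant of the STAT5 genes, varied little between mice of a group and had the lowest p-value of the 10 in any genotype comparison. Fasted wild-type mice had 57.1, 70.6 and 76.7 CPM (lowest, median and highest) and fasted WT/Y657* mice 47.4, 50.2 and 56.6. The 2 groups did not overlap, although the gap between them was narrow, from 56.6 to 57.1 CPM. Stat5b was lower in WT/Y657* mice, a log2 difference of -0.43 ± 0.08 (adjusted p = 0.00048). In fed mice the difference was 0.11 ± 0.08 (adjusted p = 0.526) and in refed mice -0.08 ± 0.08 (adjusted p = 0.798). Stat5a, its neighbour (chr11:100859351-100885169, plus strand), had medians of 13.8 and 12.7 CPM in fasted wild-type and WT/Y657* mice, with overlapping groups and a difference of -0.24 ± 0.12 (adjusted p = 0.202). The annotated exons of the 2 genes share 50-base windows, 8.52% of those of Stat5a and 11% of those of Stat5b, so a small part of their reads could be assigned to either.

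The median log2 genotype difference over the 6 STAT genes tested was -0.22 in fasted liver, beside 0.002 over all genes. No STAT gene passed in the fed or refed comparison, where 3 and 0 had an unadjusted p under 0.05.

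Socs2 (chr10:95385362-95417180, minus strand) and Cish (chr9:107296026-107302784, plus strand) are both known targets of STAT5 and inhibitors of growth hormone receptor signalling, and neither differed between genotypes by the test. Fed Socs2 was 2.64, 5.50 and 10.5 CPM in wild-type and 3.48, 10.5 and 31.9 in WT/Y657* mice. Of the 6 WT/Y657* mice, 3 lay above all wild-type mice. The difference was 1.0 ± 0.46 (adjusted p = 0.248), and without MT_866 it was 0.41 (adjusted p = 0.709). With the blocks of mouse numbers it was -0.56. Fasted Cish was 4.77, 9.08 and 14 CPM in wild-type and 2.25, 4.73 and 6.73 in WT/Y657* mice. These groups overlapped, and the difference of -1.03 ± 0.60 (adjusted p = 0.266) had a 95% interval from -2.20 to 0.13. In refed mice the Cish difference was 0.00 ± 0.54, with an interval from -1.06 to 1.06. It was -1.02 ± 0.77 in the lower and 1.06 ± 0.76 in the higher series of mouse numbers. Neither passed, nor did the difference between series (adjusted p = 0.997). None of the 11 SOCS and phosphatase genes tested passed a genotype comparison in any state, and 2, 0 and 1 had an unadjusted p under 0.05 in the fed, fasted and refed state.

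Igf1 (chr10:87858265-87937042, plus strand), the hormone gene, was higher in WT/Y657* mice in the fed and the fasted state. Fed wild-type mice had 433, 475 and 522 CPM and fed WT/Y657* mice 509, 619 and 649. In fed liver 5 of 6 WT/Y657* mice lay above the highest wild-type mouse, and MT_859 lay within the wild-type range. The difference was 0.32 ± 0.09, a ratio of 1.25 (adjusted p = 0.0378). It was 0.29 without MT_866, with adjusted p = 0.112, and leaving out WT_847, WT_848, WT_849, WT_850, MT_866, MT_868 or MT_869 raised its adjusted p to between 0.0557 and 0.112. With blocks of neighbouring mouse numbers as a covariate it was 0.18 (adjusted p = 0.999). In fasted liver the levels were 403, 455 and 529 CPM against 500, 544 and 600. That difference was 0.25 ± 0.09 (adjusted p = 0.0493), and it missed the threshold in 16 of 22 alternative settings, with the same sign. Leaving out WT_807, WT_824, WT_825, WT_918, WT_919, MT_806, MT_826, MT_827, MT_921 or MT_922 gave adjusted p-values from 0.0508 to 0.125. In refed liver Igf1 was 415, 462 and 577 against 402, 472 and 562 CPM, a difference of 0.00 ± 0.09 with an interval from -0.17 to 0.17.

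Circulating IGF1 is held by binding proteins, and Igfbp3 encodes the main one of the ternary complex. Liver Igfbp3 was 11.8 to 21.3 CPM in fed wild-type and 22.4 to 46.1 in fed WT/Y657* mice, without overlap. In the fasted state it was 10.6 to 17.1 and 19.2 to 42.0 CPM, again without overlap. The differences were 0.88 ± 0.22 fed (adjusted p = 0.0325) and 1.04 ± 0.23 fasted (adjusted p = 0.00239), and the fed one did not pass without MT_866. With blocks of mouse numbers as a covariate the fed Igfbp3 difference was 0.28 ± 0.33 (adjusted p = 0.999). The fasted one was 1.39 ± 0.32 in the lower series (adjusted p = 0.00658) and 0.66 ± 0.31 in the higher (adjusted p = 0.353). The difference between series did not pass for this gene, as for all 13945 tested. In refed mice it was 0.92 ± 0.23 (adjusted p = 0.177). Igfbp3 is made largely by non-parenchymal liver cells. Stellate cell markers summed to 264 to 391 CPM in fed wild-type and 364 to 516 in fed WT/Y657* mice, and 1 of 6 of them passed the test in the fed and in the fasted state. In the fasted state the sums were 320 to 386 and 350 to 510 CPM. Kupffer cell markers, 5 of them, summed to 212 to 293 CPM in fed wild-type and 202 to 671 in fed WT/Y657* mice, and endothelial markers to 238 to 317 and 272 to 351. None of these markers was at 0 in any of those groups, and their part in the Igfbp3 result was not tested. In these bulk samples more cells of a type and more RNA per cell cannot be told apart.

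Other genes of IGF transport are given beside it. Igf2r, the receptor that clears IGF2, was lower in the fed WT/Y657* group, a log2 difference of -0.46 ± 0.10 (adjusted p = 0.00968), or -0.31 ± 0.13 with the blocks (adjusted p = 0.999). Igfals, the acid-labile subunit that completes the ternary complex, had fed medians of 125 CPM for wild-type and 128 CPM for WT/Y657* mice. Of 7 IGF ligands and carriers tested, 2 were higher and 1 lower in fed WT/Y657* mice (42.9%, beside 2.37% of all genes). In fasted ones 2 were higher and 0 lower (28.6%, beside 13.1%). Igf1 is included in both counts. Without MT_866 the fed count was 1, Igf2r, and with the blocks it was 0 (1 at an unadjusted p under 0.05).

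Of the 4 sex-biased members, Cux2 (chr5:121856366-122050102, minus strand), which encodes a regulator of sex-biased genes, was the one that differed between genotypes. It was low in all fed mice, at 0.245 to 1.32 CPM. In fasted wild-type mice it was 0.723, 1.06 and 1.82 CPM and in fasted WT/Y657* mice 0.599, 3.84 and 8.49, a difference of 1.93 ± 0.44 (adjusted p = 0.00313), or 1.95 (adjusted p = 0.0597) when only the fasted libraries were fitted. The 3 WT/Y657* mice of the lower series had 8.31, 4.99 and 8.49 CPM, and the 3 of the higher series 2.68, 0.599 and 0.848. The groups overlapped through the latter mice.

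Within the lower series the fasted genotype difference of Cux2 was 2.45 ± 0.48 (adjusted p = 0.00138), and within the higher series it was 0.54 ± 0.52 (adjusted p = 0.719). The difference between the series, -1.92 ± 0.71, did not pass adjustment (unadjusted p = 0.0107, adjusted p = 0.975). In the lower series 3 of the 10 genes passed (Cux2, Stat5b and Ghr), against 7.30% of all genes, and in the higher series none passed against 0.523% (2 at an unadjusted p under 0.05, Stat5b and Hsd3b5). Ghr was lower in WT/Y657* mice in both series, with log2 differences of -0.56 ± 0.16 and -0.32 ± 0.16, as was Stat5b, at -0.56 ± 0.11 and -0.30 ± 0.11. The lower-series values passed and the higher-series values did not (adjusted p = 0.399 and 0.205), and the difference between series was 0.25 ± 0.23 for Ghr and 0.26 ± 0.16 for Stat5b, neither past the threshold.

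Bcl6 (chr16:23965052-23988852, minus strand), Hsd3b5 (chr3:98618634-98630252, minus strand) and Elovl3 (chr19:46131897-46135694, plus strand) did not pass the genotype test in any state. Bcl6 came nearest in refed mice, where wild-type levels were 5.35, 48.7 and 78.3 CPM and WT/Y657* levels 5.26, 9.32 and 21.6. Of the 6 refed wild-type mice, 4 lay above all WT/Y657* mice and the other two, WT_816 and WT_900, lay among them at 5.35 and 11.6 CPM. The difference was -1.96 ± 0.50, a ratio of 0.257 (unadjusted p = 0.00047, adjusted p = 0.197). DESeq2 gave an adjusted p of 0.0372. In fasted mice the Bcl6 difference was 0.31 ± 0.50, with opposite signs in the lower series (1.59 ± 0.69) and the higher (-0.82 ± 0.66). None of these passed, nor did the difference between series (-2.4 ± 0.96, unadjusted p = 0.0184, adjusted p = 0.975). Hsd3b5, a steroid dehydrogenase of male liver, was 0.419 times as high in fasted WT/Y657* mice, with an adjusted p of 0.172. Without MT_921 the log2 difference was -1.93 and passed (adjusted p = 0.0384). Its transcript shares 21.2% of 50-base windows with 8 other genes, so its reads may be split among relatives. For Elovl3, a fatty acid elongase, the 3 genotype differences were 0.45 ± 0.29, -0.05 ± 0.29 and -0.42 ± 0.30 in the fed, fasted and refed states.

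**Figure D2:**
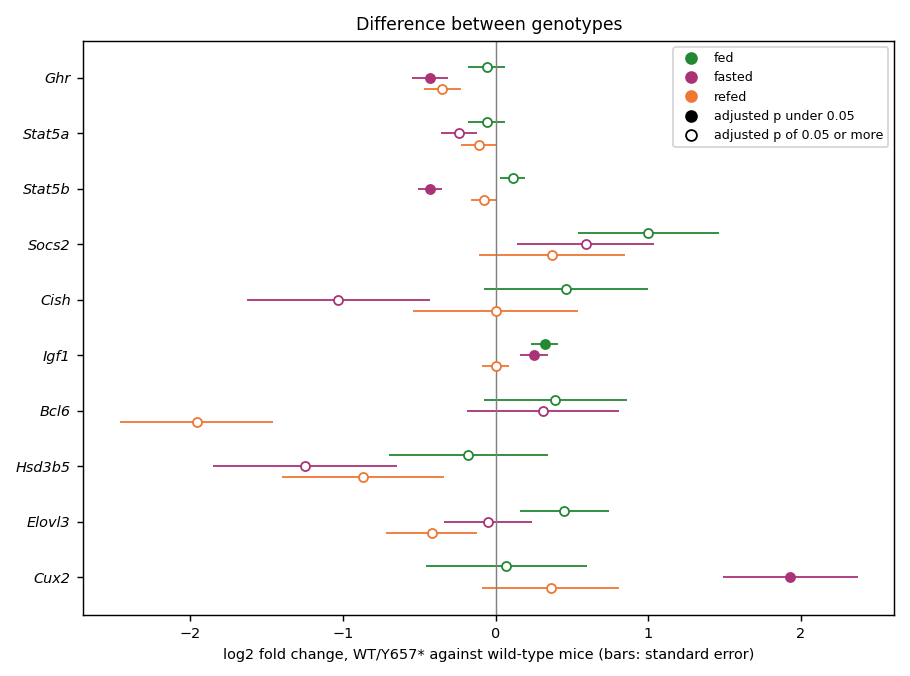
Genotype difference (WT/Y657* minus wild-type, log2 scale) of the 10 genes in fed, fasted and refed liver, with bars of 1 SE from edgeR and filled points where adjusted p was under 0.05. Igf1 lies above 0 in fed and fasted liver and at 0 in refed liver, Stat5b lies below 0 in fasted liver, and Bcl6 in refed liver lies furthest below 0 with an open point.

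Wider lists of sex-biased liver genes were then counted. Of 26 male-biased genes, none passed in fed liver, 3 were higher and 1 lower in fasted WT/Y657* liver (15.4%, near the 13.1% of all genes), and none passed in refed liver. At an unadjusted p under 0.05 the fed and refed counts were 1 and 2. The median differences were -0.27, 0.22 and -0.34, beside 0.008, 0.002 and 0.006 over all genes. The fed median was -0.11 without MT_866 and 0.25 with the blocks of mouse numbers. The fasted median was 0.37 in the lower and -0.07 in the higher series. The fasted genes were Mup20, the pheromone darcin, higher by 1.29 ± 0.28 (adjusted p = 0.00217), the complement gene C6, higher by 0.71 ± 0.18 (adjusted p = 0.0078), Moxd1, and the cytochrome gene Cyp2u1, lower with a log2 difference of -0.66 ± 0.17 (adjusted p = 0.011). Moxd1 was named after its values were seen. Of 17 female-biased genes tested, 5 were higher in fed WT/Y657* liver (Cyp2a4, Ntrk2, Cyp2c40, A1bg and Cyp2c69, the last pair named after their values were seen), but without MT_866 only Ntrk2 passed, and with the blocks of mouse numbers none did (1 at an unadjusted p under 0.05) and the median went from 0.46 to -0.19. In fasted liver Cux2 and Cyp39a1 were higher, and Cyp2b9 was lower, at 0 to 1.34 CPM against 1.61 to 75.0 in wild-type mice (adjusted p = 0.00303), together 17.6% of the list beside 13.1% of all genes. Without MT_827 Cyp39a1 did not pass (adjusted p = 0.0835), Atp6v0d2, named after its values were seen, was lower (adjusted p = 0.0155), and the median of the list was 0.34 in place of 0.61. Within the higher series none of the 26 male-biased and 17 female-biased genes passed in fasted liver (4 and 5 at an unadjusted p under 0.05). Mup and Cyp2 genes have near-identical relatives, and their separate counts are uncertain.

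Among 10 hepatocyte transcription factors that act on sex-biased genes, 3 were lower in fasted WT/Y657* liver and none higher, beside 13.1% of all genes called. They included Foxa2, at -0.93 ± 0.19 (adjusted p = 0.00142), and Cebpa, at -0.51 ± 0.11 (adjusted p = 0.00217). The median over the 10 was -0.31, beside 0.002 for all genes. Of 12 clock genes, Cry2 alone passed in fasted liver (8.33%, below the 13.1% of all genes), lower with a log2 difference of -0.63 ± 0.18 (adjusted p = 0.0177).

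Fasting was compared with feeding in each genotype. In wild-type mice 2 of the 10 genes passed, both lower on fasting, where 32% of all genes passed. In WT/Y657* mice 5 passed, 4 lower and 1 higher, where 32.9% of all genes passed. These counts, 20% and 50% of only 10 genes, were not tested against each other. Of the 10, Stat5b alone passed the test of a difference between the responses of the genotypes. Ghr and Hsd3b5 fell in both genotypes. Stat5b and Cish fell and Cux2 rose past the threshold in WT/Y657* mice.

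Ghr fell on fasting in both genotypes, with log2 changes of -0.41 ± 0.12 in wild-type mice (adjusted p = 0.0083) and -0.78 ± 0.12 in WT/Y657* mice (adjusted p = 4.4e-06). In neither genotype did a fasted mouse reach the lowest fed mouse, at 576 and 514 CPM. The difference between these responses, -0.37 ± 0.17, did not pass (adjusted p = 0.231). Prlr, the prolactin receptor, moved the other way in wild-type mice, from 38.7–74.0 CPM fed to 83.9–116 fasted, a rise of 0.89 ± 0.26 (adjusted p = 0.00797). Jak2 rose in wild-type mice by 0.22 ± 0.08 (adjusted p = 0.0248).

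The fasting response of Stat5b differed between genotypes. Fed and fasted wild-type mice had medians of 63.5 and 70.6 CPM, a difference of 0.09 ± 0.08 (adjusted p = 0.423). Fed WT/Y657* mice had 60.0, 70.0 and 75.4 CPM and fasted ones 47.4, 50.2 and 56.6, with no overlap, a change of -0.45 ± 0.08 (adjusted p = 4.6e-05). The difference between the responses was -0.54 ± 0.12 (adjusted p = 0.00594). Stat5b was the 1 gene of 10 to pass this test, which 4.35% of all genes passed. The test includes the fed genotype difference, which is largely confounded with block, and it was not fitted with blocks. For Stat5a the corresponding difference was -0.18 ± 0.18 and for Igf1 -0.07 ± 0.12.

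Cish was 3.34, 14.4 and 23.4 CPM in fed and 2.25, 4.73 and 6.73 in fasted WT/Y657* mice. Those groups overlapped, since 2 fed mice, MT_866 and MT_868, had 4.67 and 3.34 CPM. The fall was -1.65 ± 0.58 (adjusted p = 0.0289), and leaving out any of MT_857, MT_859, MT_869, MT_827 or MT_923 gave adjusted p-values between 0.0509 and 0.0725. In wild-type mice the Cish difference was -0.16 ± 0.56, and the 2 responses differed by -1.49 ± 0.81 (adjusted p = 0.315). Socs2 did not pass on fasting in either genotype, at 0.67 ± 0.47 and 0.26 ± 0.44. Of the 11 SOCS and phosphatase genes, Socs4 and Socs5 fell and Ptpn6 rose in wild-type mice, and Socs4, Socs5 and Cish fell in WT/Y657* mice.

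Igf1 differed little between fed and fasted mice, by -0.06 ± 0.09 for wild-type (interval -0.23 to 0.11) and -0.13 ± 0.09 for WT/Y657* mice (interval -0.30 to 0.04). Of 7 IGF ligands and carriers tested, Igf1 among them, 1 rose and 1 fell in wild-type mice, and 2 rose and 0 fell in WT/Y657* mice. Both shares were 28.6%, below the 32% and 32.9% of all genes, and the medians were 0.0 and 0.02. Igfbp2, a binding protein raised by fasting, was 170 to 302 CPM in fed and 274 to 652 in fasted wild-type mice, a rise of 0.87 ± 0.20 (adjusted p = 0.00092), and it rose by 1.26 ± 0.20 in WT/Y657* mice (adjusted p = 8.3e-06). Igfbp1, an insulin-repressed binding protein, rose by 2.45 ± 0.69 in WT/Y657* mice (adjusted p = 0.00694).

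Hsd3b5 showed the largest fall of the 10 genes on fasting. Fed wild-type mice had 176, 207 and 240 CPM and fasted ones 2.91, 15.7 and 47.7. Fed WT/Y657* mice had 72.8, 202 and 259 CPM and fasted ones 0.211, 5.71 and 22.5. Neither pair overlapped, and the changes were -3.46 ± 0.58 (adjusted p = 2.5e-05) and -4.54 ± 0.63 (adjusted p = 1.3e-06), which differed by -1.08 ± 0.79 (adjusted p = 0.485). The lowest value, in MT_827, came from 3 counts. Fasted wild-type mice of the lower series had 2.91 to 5.40 CPM and those of the higher series 26 to 47.7, without overlap, while fasted WT/Y657* mice of the 2 series overlapped. Elovl3, also male-biased, did not pass on fasting: the differences were 0.50 ± 0.29 in wild-type mice (interval -0.07 to 1.06) and 0.00 ± 0.29 in WT/Y657* mice (interval -0.57 to 0.56).

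Cux2 rose on fasting in WT/Y657* mice by 2.63 ± 0.46 (adjusted p = 2.5e-05), from a median of 0.700 to one of 3.84 CPM, with overlap through the mice of the higher series. In wild-type mice the change was 0.77 ± 0.51 (adjusted p = 0.262). The responses differed by 1.86 ± 0.69 without passing (adjusted p = 0.119). Bcl6 had medians of 32 and 15 CPM in fed and fasted wild-type mice, a difference of -0.98 ± 0.49 (adjusted p = 0.129), and 46.9 and 16.1 CPM in WT/Y657* mice, a difference of -1.06 ± 0.48 (adjusted p = 0.0916).

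The list of male-biased genes, which includes Hsd3b5, Elovl3 and Bcl6, was also counted on fasting. Of 26, 17 fell and none rose in wild-type mice (65.4%, beside 32% of all genes, with a median of -1.02, beside 0.01). In WT/Y657* mice 10 fell and none rose (38.5%, near the 32.9% of all genes, with a median of -0.71, beside -0.008). Without MT_866 the latter count was 14. Nudt7, a peroxisomal coenzyme A hydrolase, went from 793–934 CPM in fed to 134–214 in fasted wild-type mice, a change of -2.32 ± 0.17 (adjusted p = 1.2e-12). Selenbp2 fell by 4.94 ± 0.52 (adjusted p = 7.9e-09). Of 17 female-biased genes, 7 rose and none fell in wild-type mice (41.2%), and 8 rose and 4 fell in WT/Y657* mice (70.6%), which was 7 and 1 without MT_866. Cyp2b9 rose in fasted wild-type mice from at most 0.171 CPM to between 1.61 and 75.0 (adjusted p = 0.00034).

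**Figure D3:**
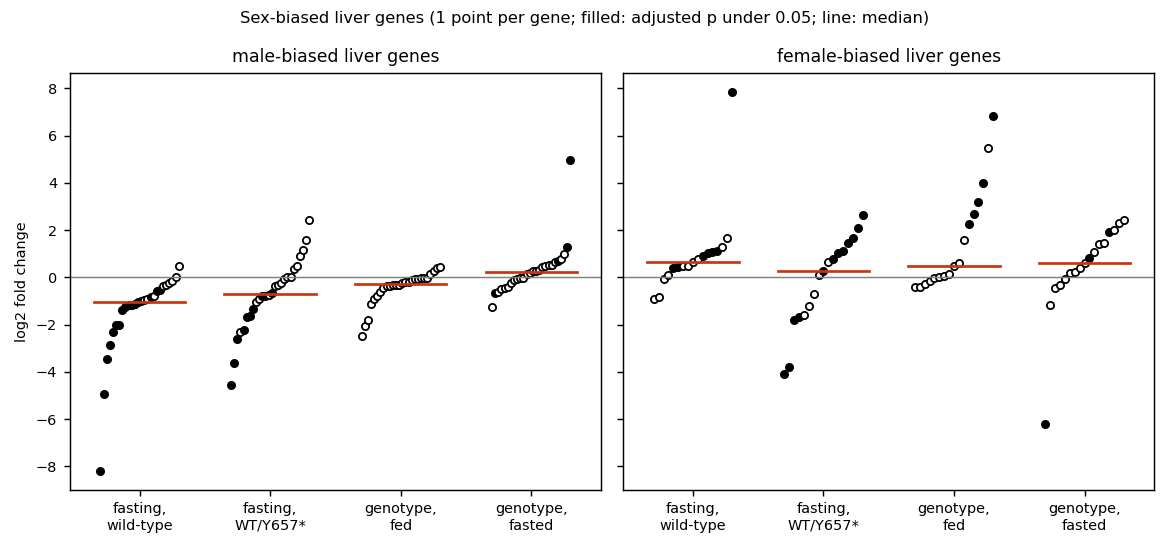
Log2 differences of each tested male-biased and female-biased liver gene in 4 comparisons: fasting in wild-type, fasting in WT/Y657*, and genotype in fed and in fasted liver, with a red line at the median. Male-biased genes lie mostly below 0 on fasting, with medians of -1.02 and -0.71, and on both sides of 0 in the genotype comparisons.

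Refeeding was then compared with fasting. In wild-type mice 4 of the 10 genes passed, 2 higher and 2 lower, against 30.2% of all genes. In WT/Y657* mice 5 passed, 1 higher and 4 lower, against 31.3%. Hsd3b5 rose and Elovl3 and Stat5b fell in both genotypes. Bcl6 rose past the threshold in wild-type mice, and Socs2 and Cux2 fell past it in WT/Y657* mice.

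Ghr did not pass on refeeding, at 0.20 ± 0.12 for wild-type and 0.28 ± 0.12 for WT/Y657* mice (adjusted p = 0.228 and 0.083). Jak2 fell in both, with log2 changes of -0.38 ± 0.08 and -0.30 ± 0.08, and so did the insulin receptor gene Insr, at -0.38 and -0.46, and the IGF1 receptor gene Igf1r, at -0.63 and -0.77. These 3 made up all the calls among the 6 receptor and kinase genes.

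Stat5b fell on refeeding in wild-type mice from 57.1–76.7 CPM fasted to 37.8–53.8 refed, a log2 change of -0.59 ± 0.08 (adjusted p = 8.1e-07). In WT/Y657* mice it went from 47.4–56.6 CPM to 40.7–46.1, a change of -0.23 ± 0.08 (adjusted p = 0.0322). Neither pair of groups overlapped. The smaller WT/Y657* fall was -0.13 (adjusted p = 0.286) when libraries were scaled by size alone, and leaving out MT_810, MT_814, MT_827, MT_898, MT_921 or MT_922 raised its adjusted p to between 0.0537 and 0.0843. The responses differed by 0.36 ± 0.12 (adjusted p = 0.0995). No member passed that test by edgeR's quasi-likelihood method, where 2.06% of all genes passed. At an unadjusted p under 0.05, 4 of the 10 passed (Stat5b, Bcl6, Igf1 and Cux2), and DESeq2 and edgeR's likelihood ratio test each called 1, Bcl6.

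Socs2 was 5.09, 13.4 and 25.9 CPM in fasted and 3.41, 5.74 and 9.15 in refed WT/Y657* mice, a change of -1.27 ± 0.46 (adjusted p = 0.0326) with overlapping groups. Leaving out MT_806, MT_810, MT_826, MT_897, MT_899 or MT_921 gave adjusted p-values from 0.0541 to 0.0968. In wild-type mice it was 6.61, 8.24 and 15.9 CPM and 2.23, 4.85 and 6.87, a difference of -1.05 ± 0.47 that missed the threshold (adjusted p = 0.0942). The responses differed by -0.23 ± 0.66. Cish spread widely among refed wild-type mice, from 1.92 to 29.9 CPM. Its refeeding differences were 0.29 ± 0.56 and 1.32 ± 0.59 (adjusted p = 0.741 and 0.0866).

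Igf1 did not pass on refeeding, at 0.04 ± 0.09 for wild-type and -0.21 ± 0.09 for WT/Y657* mice (adjusted p = 0.789 and 0.0568). The latter passed in some alternative settings, among them DESeq2 (adjusted p = 0.0306) and leaving out MT_814 (adjusted p = 0.0184), MT_806, MT_899 or MT_923. Igfals rose in both, from 111–138 CPM to 167–214 in wild-type mice, by 0.58 ± 0.15 (adjusted p = 0.00299), and by 0.76 ± 0.15 in WT/Y657* mice (adjusted p = 0.00017). Igfbp1 fell in both, with changes of -2.79 ± 0.75 and -3.19 ± 0.72 (adjusted p = 0.00482 and 0.00097).

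Hsd3b5 and Elovl3, both male-biased, moved in opposite directions on refeeding. Hsd3b5 rose from 2.91–47.7 CPM to 67.7–153 in wild-type mice, by 2.53 ± 0.56 (adjusted p = 0.0009). In WT/Y657* mice it rose from 0.211–22.5 CPM to 23.9–100, by 2.91 ± 0.60 (adjusted p = 0.00035). Within the lower series the rises were 4.44 and 4.41, and within the higher series 1.90 and 1.85, all past the threshold. Elovl3 fell from 183–301 CPM to 13.9–50.9 in wild-type mice, a change of -2.85 ± 0.31 (adjusted p = 3.4e-08), and from 92.6–403 CPM to 17–37.9 in WT/Y657* mice, a change of -3.22 ± 0.32 (adjusted p = 4.4e-09). No fasted and refed groups overlapped for either gene.

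Bcl6 rose on refeeding in wild-type mice by 1.33 ± 0.49 (adjusted p = 0.0373), with overlap, while in WT/Y657* mice the difference was -0.94 ± 0.50 (adjusted p = 0.16). The wild-type rise missed the threshold in 11 of 22 alternative settings, among them without WT_807, WT_815, WT_824, WT_825, WT_896, WT_901 or WT_920 (adjusted p from 0.0508 to 0.116). The difference between the responses, -2.27 ± 0.70, had an adjusted p of 0.0855 by the quasi-likelihood test and 0.0305 by DESeq2. Cux2 fell in WT/Y657* mice by 1.61 ± 0.42 (adjusted p = 0.00335), from 0.599–8.49 CPM to 1.02–2.07. It missed the threshold when only the libraries compared were fitted (adjusted p = 0.0516). That fall was -2.19 in the lower series (adjusted p = 0.00068) and -0.16 in the higher (adjusted p = 0.884).

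Of the 26 male-biased genes, 7 rose and 2 fell on refeeding in wild-type mice, and 3 rose and 4 fell in WT/Y657* mice. These shares, 34.6% and 26.9%, were near the 30.2% and 31.3% of all genes. Of 17 female-biased genes, none rose and 2 fell, and 1 rose and 2 fell, which were shares below those of all genes. The medians of the male-biased genes were 0.42 and -0.29, beside 0.002 and -0.008 for all genes.

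**Figure D4:**
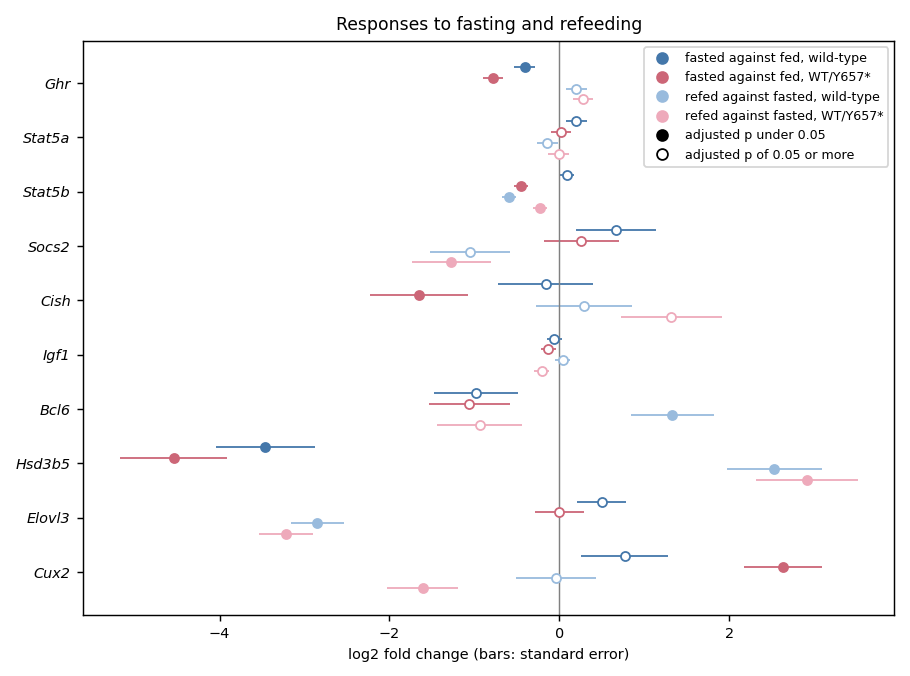
Fasting response (fasted minus fed) and refeeding response (refed minus fasted) of the 10 genes in each genotype, as log2 differences with bars of 1 SE and filled points where adjusted p was under 0.05. Hsd3b5 falls on fasting and rises on refeeding in both genotypes, Elovl3 falls on refeeding in both, and Stat5b falls on fasting in WT/Y657* mice and on refeeding in both.

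Refed mice were compared with fed mice last. In wild-type mice 2 of the 10 genes, Stat5b and Elovl3, were lower refed than fed, against 27.5% of all genes. In WT/Y657* mice 6 were lower, against 26.1%: Ghr, Stat5b, Igf1, Bcl6, Hsd3b5 and Elovl3. None was higher in either genotype. Stat5b had log2 differences of -0.50 ± 0.08 for wild-type (adjusted p = 2.2e-05) and -0.68 ± 0.08 for WT/Y657* mice (adjusted p = 1.1e-07), with no overlap. Elovl3 had log2 differences of -2.35 ± 0.31 and -3.22 ± 0.32 (adjusted p = 1.4e-06 and 9.4e-09), also with no overlap.

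The remaining calls were in WT/Y657* mice. Igf1 was 509 to 649 CPM fed and 402 to 562 refed, a log2 difference of -0.34 ± 0.09 (adjusted p = 0.00271), where wild-type mice differed by -0.03 ± 0.09. Bcl6 was 16.8 to 60.7 CPM fed and 5.26 to 21.6 refed, a log2 difference of -2.0 ± 0.50 (adjusted p = 0.00341), where wild-type mice differed by 0.35 ± 0.47. Ghr was lower, with a log2 difference of -0.51 ± 0.12 (adjusted p = 0.00202) and Hsd3b5 one of -1.62 ± 0.53 (adjusted p = 0.0237, and 0.0517 without MT_898 or 0.0529 without MT_810). The corresponding wild-type differences were -0.21 ± 0.12 and -0.93 ± 0.52, and Hsd3b5 did not overlap between fed and refed wild-type mice although it did not pass (adjusted p = 0.191). Whether the 2 genotypes differed in these refed-to-fed differences was not tested. Fed and refed mice came from different mouse number series, and part of the fed WT/Y657* mice formed a block without wild-type mice.

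Members were also compared between mice of the same group. Log2 CPM was centred on its group mean, and 6 pairs were examined over 36 mice by permutation within groups. Bcl6 and Cish gave the lowest rank p-value, with a negative correlation. In refed wild-type mice Bcl6 was 78.3 CPM and Cish 1.92 in WT_896, and Bcl6 was 5.35 and Cish 11.3 in WT_816. WT_828 of the same group went the other way, with the highest Cish, 29.9 CPM, and Bcl6 at 40.5 CPM. Pearson's r was -0.44 (permutation p = 0.0198, adjusted p = 0.0593) and Spearman's rho was -0.49 (permutation p = 0.00427, adjusted p = 0.0256). Without the 2 mice farthest from the median, r was -0.47. Within states r was -0.42 fed, -0.69 fasted and -0.42 refed, and with the means of series also removed it was -0.39 and did not pass (permutation p = 0.103, adjusted p = 0.205).

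Over all 36 mice no other pair passed by either coefficient, and Bcl6 and Cish passed by rank alone. For Hsd3b5 and Elovl3 r was 0.45 and rho 0.27 (permutation p = 0.0116 and 0.128, adjusted p = 0.0593 and 0.192), and r was 0.29 without the 2 farthest mice. For Igf1 and Socs2 r was 0.36 and rho 0.37 (permutation p = 0.0342 and 0.0387, adjusted p = 0.0684 and 0.116), and r was 0.29 without the 2 farthest mice. Igf1 and Cish (r -0.26, rho -0.28), Hsd3b5 and Cux2 (r -0.25, rho -0.14) and Socs2 and Cish (r -0.10, rho -0.09) had adjusted permutation p-values from 0.192 to 0.649. Socs2 and Cish, both STAT5 targets, had r of -0.55 within fed and 0.65 within fasted mice.

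**Figure D5:**
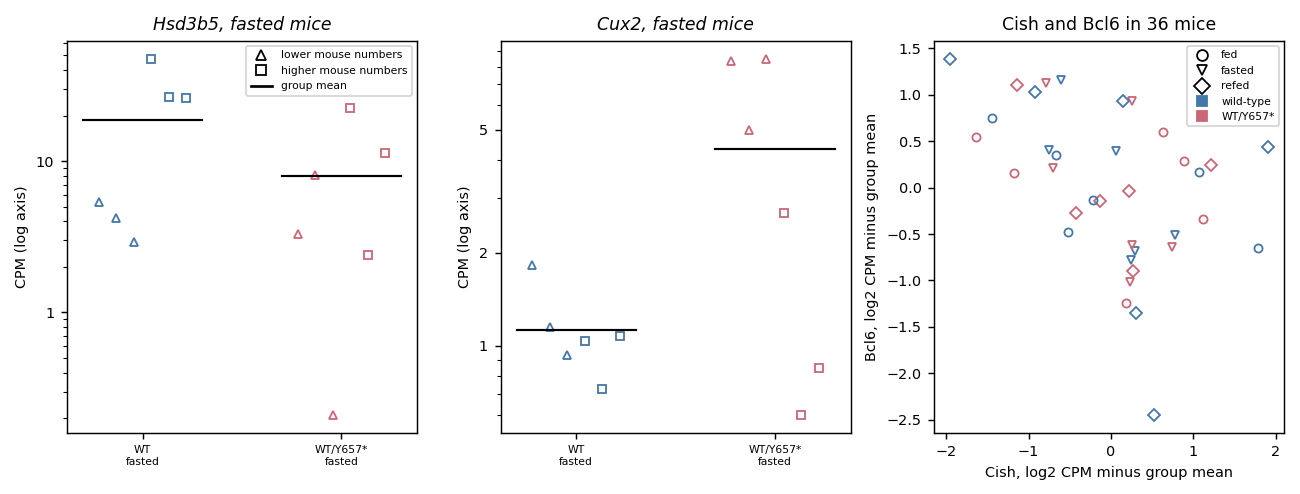
Hsd3b5 and Cux2 in fasted mice by genotype and mouse number series (CPM, log axis), and Cish against Bcl6 in all 36 mice as log2 CPM minus the group mean. Fasted WT/Y657* mice of the lower series have 4.99 to 8.49 CPM of Cux2 and those of the higher series 0.599 to 2.68. Mice with more Bcl6 than their group tend to have less Cish (r -0.44, permutation adjusted p = 0.0593, and rho -0.49, permutation adjusted p = 0.0256).

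Among all 13945 genes, those whose log2 CPM about the group means was most like that of 4 members over the 36 mice were named as a description. For Igf1 they were Zkscan14 (r 0.72), Ugt2a3 (0.67) and Gm16153 (0.65). For Cish they were Gm17041 (0.84), which shares 386 of the 6559 windows of 50 bases in the Cish exons, Hhex (0.77) and Phlda1 (0.75). For Hsd3b5 they were the bile acid and steroid transporter Slco1a1 (0.85), the urinary protein gene Mup3 (0.84) and the clock repressor Cry2 (0.80). For Cux2 they were Pdk4 (0.64), Adcy1 (0.64) and Chka (0.63).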

How the data were processed

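Total RNA of 36 snap-frozen livers was made into stranded libraries and sequenced as 50-base single reads, per the labels. The authors deposited 1 table of estimated counts per gene and mouse, without normalization, made with Cuffdiff and featureCounts. Versions are not given in the sources used here, and the labels speak of human genes. The submitters' processing notes list mm9, but the table's loci fit GRCm38: of 36341 gene identifiers found in GENCODE M21, 75.7% lay inside the table's locus and 44.2% had the same start and end, so no mm9 coordinate is given. A second table, of the authors' fitted values, was not used.

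Groups, states and mouse numbers came from the labels. Counts (3.29% of those above 0 were not whole, tolerance 1e-06) were rounded. With edgeR 4.0.16 in R 4.3.3, filterByExpr kept 13945 genes, and libraries were scaled by TMM and fitted over all 36 libraries with 1 coefficient per group (glmQLFit, robust). Contrasts were tested two-sided by edgeR's quasi-likelihood test, with p adjusted by Benjamini and Hochberg's method over all genes tested at a threshold of 0.05, and every adjusted p of a gene is from this test unless another is named. The standard error of a log2 fold change was its size divided by the root of F. CPM are TMM-scaled, and correlations used log2 CPM with a prior count of 2 and 100000 shuffles of mice within groups. The script was tested on simulated data.

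The 10 genes, the gene lists and the tests were chosen with earlier results of these data known. Named genes were the 10 members, the 3 called genes with the smallest p of each list and comparison, Jak2, Igfals and Igfbp3, and the 3 genes most correlated with 4 members. Alternatives were edgeR's likelihood ratio test, DESeq2 1.42.0, DESeq2 size factors, library size alone, no filter, at least 10 counts in every library, only the groups compared, mouse number series or blocks as covariates, a prior count of 0.5 and leaving out each mouse. Separate fits per series, and gene list counts without the mice MT_866 or MT_827 or with the blocks, and Dixon's criterion on the linear scale, were added after seeing the data. Counting error was not separated from the spread between mice. It weighs most where counts are low, and single mice had as few as 4 counts of Cux2 and 3 of Hsd3b5. Some members of the wider gene lists are counted but not reported here by name.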

Additional observations from a re-analysis of the deposited data

Results flagged for a closer look

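The fasting response of Stat5b differed between genotypes by -0.54 ± 0.12 on the log2 scale (adjusted p = 0.00594 by edgeR's quasi-likelihood test, Benjamini-Hochberg adjusted), and this test of the difference itself is why it is listed here. All 6 fasted WT/Y657* mice lay below all 6 fed ones, and fed and fasted wild-type mice overlapped. On the log2 scale no mouse stood apart from the other 5 of its group by Dixon's criterion in the 60 groups examined. On the linear CPM scale 3 mice did, where chance would give about 3. They were MT_866 with 31.9 CPM of Socs2 among fed WT/Y657* mice (next highest 11.1), WT_828 with 29.9 CPM of Cish among refed wild-type mice (next highest 11.3), and WT_815 with 577 CPM of Igf1 in that group (next highest 473).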

How the results depend on the processing

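Over the 10 genes and 11 comparisons, 72 values had a direction (38 lay within 1 SE of 0) and 30 passed the threshold. Of these 30, 19 passed under every alternative run, 11 were lost in 1 or more, and none changed sign. Every genotype call was among those lost in 1 or more: Igf1 in fed liver, and Ghr, Stat5b, Igf1 and Cux2 in fasted liver. For fed against fasted or refed mice, no alternative could separate feeding state from mouse number series, because all fed mice came from the middle series. Among alternatives to the values with a direction, 1531 kept direction and side of the threshold, 71 lost the threshold, 23 gained it and 2 changed sign: fed Socs2 became -0.56 with blocks of fed mouse numbers as a covariate (1.0 without), and wild-type refeeding of Stat5a became 0.11 in the higher series (-0.14 in all mice). The cause was not tested in either case. The Stat5b fasting difference passed in all 32 alternatives, of which 24 each left out 1 mouse. None of them fitted the blocks of fed mouse numbers or each series apart, so the confounding of fed genotype with block was not tested.

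The number of the 10 genes called changed as follows. In fed liver it was 0 with only the libraries compared or with the blocks, and 0 to 1 leaving out 1 mouse. In fasted liver it was 0 in the higher series and 2 to 4 leaving out 1 mouse. In refed liver it was 1 by DESeq2. A minimum of 10 counts in every library removed Hsd3b5 and Cux2 from testing and left, for fasting, 1 call among wild-type mice and 3 among WT/Y657* mice. On refeeding in WT/Y657* mice it was 3 with no filter and 2 in the higher series. The fasting difference between genotypes gave 1 to 2 leaving out 1 mouse, and the refeeding difference 0 to 1, and 1 by DESeq2 or the likelihood ratio test. Where fewer mice or genes entered is known by construction, and otherwise the cause was not tested.

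Correlations of pairs changed sign in several subsets: Socs2 and Cish had r of 0.65 in fasted, 0.16 in refed, 0.21 in lower-series and 0.38 in higher-series mice and 0.04 without the 2 farthest. Igf1 and Socs2 had -0.13 in the higher series. Hsd3b5 and Cux2 had 0.60 in refed mice, 0.70 in the higher series and 0.10 with series means removed. Hsd3b5 and Elovl3 passed in fed mice (0.76, permutation adjusted p = 0.0345) and with series means removed (0.61, permutation adjusted p = 0.0138). The cause was not tested. No paired analysis was possible because each mouse has a number of its own and the groups share none. Per-series values were chosen after seeing the data. Depth limits Cux2 and fasted Hsd3b5, where single mice had as few as 3 counts.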
